A study of Caenorhabditis elegans with 14 samples.

Results

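The genes described here are the flp and nlp genes of Caenorhabditis elegans, chosen as every gene whose public name is flp or nlp followed by a number in the deposited gene coordinates (annotation WS190). There were 72 of them among 20314 genes, of which 30 were flp and 42 were nlp genes. RNA polymerase II had been mapped by ChIP-seq, in which chromatin bound by polymerase is recovered with an antibody and sequenced, in whole first-stage (L1) larvae of the wild-type strain N2. One state was recovery, in which larvae held without food for 12 hr were fed HB101 bacteria and crosslinked 1 hr later, and the other was L1 arrest, the starved state of larvae that hatch without food, crosslinked after 6 hr or 12 hr. Recovery and 12 hr arrest each had 4 libraries, namely 1 with the antibody S2 (against the serine 2 phosphorylated tail of the polymerase), 2 with 4H8 and 1 with 8WG16 (both against the same tail). The 6 hr arrest state had 2 S2 samples but 1 column, titled as the first sample. Whether that column also holds reads of the second sample is not stated. The 4 input samples, chromatin taken before precipitation, had 1 pooled column. Recovery larvae were also 1 hr later in culture than 12 hr arrest larvae, so feeding and that hour cannot be told apart.

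Neuropeptides are short signalling peptides cut from larger precursor proteins, packed into dense core vesicles and released from neurons and some other cells onto G protein-coupled receptors. In C. elegans the flp genes encode FMRFamide-like peptides, and the nlp genes encode the other neuropeptide-like precursors apart from insulins. Many are made in a few neurons each and act on feeding, movement, sleep and stress responses, while a subset of nlp genes encodes antimicrobial-type peptides of the epidermis. A whole-larva library mixes all cells, so fewer cells with polymerase on a gene and less polymerase per cell cannot be told apart.

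Density is given in RPKM (reads per kilobase of sequence, relative to library depth), over the whole gene model (gene density) or over 200 bp around the first annotated start of transcription (TSS density). Library depth was between 1322000 reads (8WG16 in recovery) and 5861000 reads (4H8 replicate 2 in recovery), with 11898000 reads for the input. The neuropeptide genes are short, with models of 281 to 7242 bp and a median of 1031.5 bp against 1943 bp for all genes, so few reads stood behind each value. Over the gene model the median member had 16 reads in its lowest library and 83.5 reads in its highest, and over the TSS window 2 and 15 reads. In a start window 3 reads were worth 2.56 to 11.3 RPKM, depending on the library, so smaller TSS differences cannot be read at this depth. Larger ones are not thereby resolved, since counting error grows with the number of reads. These limits cover counting error only. As a check of the tissue, 7 of 9 body muscle markers had gene densities above the input in all 8 recovery and 12 hr arrest libraries, against 2 of 12 neuron markers, 3 of 10 epidermis markers and 1 of 8 intestine markers. The X chromosome carried 23 of the 72 genes (31.9%) but 14.0% of all genes, and 10 members overlapped another gene model.

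At 43 of the 72 neuropeptide genes neither state had a mean gene density above the input (59.7%, against 68.1% of all genes). Gene density exceeded the input in all 8 libraries at 7 members, fell below it in all 8 at 27, and lay on both sides at 38. Of all 20314 genes, 9.93% were above in all 8 libraries and 50.5% below, so the members' 9.72% above is near the background. The median ratio of mean ChIP density to input was 0.77 for the members, 0.66 for all genes and 0.43 for 1160 chemoreceptor genes, which are also used in few cells. All 7 members above were nlp genes and none of the 30 flp genes was. They were nlp-4, nlp-8, nlp-24, nlp-26, nlp-32, nlp-33 and nlp-36. None of the 23 members on X was above the input in every library, where 6.32% of all X genes were. The recovery mean exceeded the input at 24 members, where 26.3% of all genes did, and the arrest mean at 19, where 25.3% did. Both means did so at 14 members, recovery alone at 10 and arrest alone at 5. There is 1 input column, so none of these comparisons with input has a test.

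**Figure D1:**
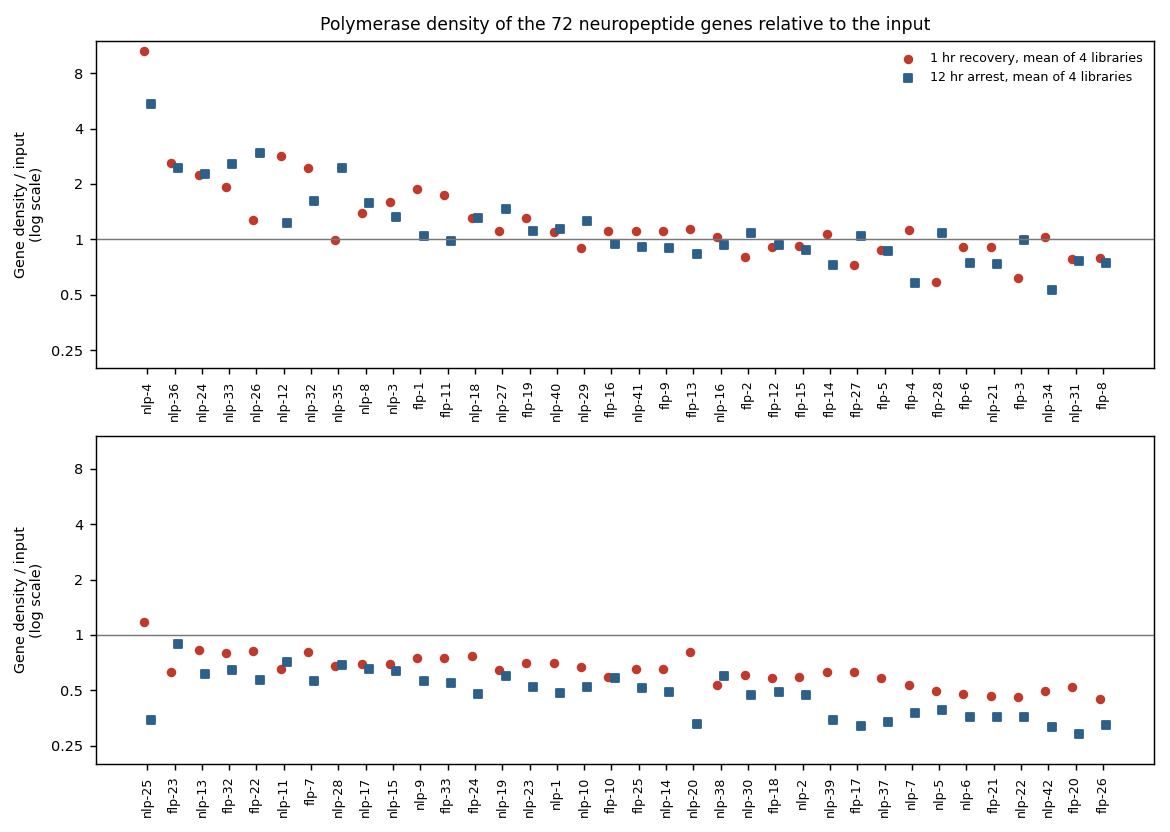
Gene density of each of the 72 neuropeptide genes divided by its input density (vertical axis, log scale), ranked by the mean over both states, with the upper row holding the 36 highest ratios. Red circles are means of the 4 recovery libraries and blue squares means of the 4 libraries of 12 hr arrest, and the grey line marks the input; nlp-4 stands at the top with a mean ratio of 7.98 and 43 genes have both points below the line.

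The ratio to input was highest at nlp-4, at 7.98, followed by nlp-36 (2.52), nlp-24 (2.26), nlp-33 (2.24), nlp-26 (2.11), nlp-12 (2.03), nlp-32 (2.02) and nlp-35 (1.71). Of these, nlp-24, nlp-26, nlp-32 and nlp-33 belong to the glycine-rich, antimicrobial-type nlp genes, and nlp-24 has also been studied as an opioid-like peptide in starved feeding. In recovery nlp-24 had 28.6 RPKM with S2, 39.9 and 47.5 with 4H8 and 54.02 with 8WG16, against 33.4 RPKM with S2, 42.5 and 44.97 with 4H8 and 50.98 with 8WG16 in arrest, with an input of 18.9 RPKM. Values of nlp-32 were 51.9 RPKM with S2, 62.3 and 89.5 with 4H8 and 83.1 with 8WG16 in recovery, against 50.8 RPKM with S2, 41.2 and 53.2 with 4H8 and 45.5 with 8WG16 in arrest, with an input of 29.5 RPKM. Both genes were above the input in every library, and the states overlapped at both. At nlp-36 the libraries held 61.5 RPKM with S2, 44.8 and 29.6 with 4H8 and 31.2 with 8WG16 in recovery, and 42.1 RPKM with S2, 35.6 and 43.9 with 4H8 and 34.7 with 8WG16 in arrest, with an input of 16.03 RPKM. The model of nlp-36 overlaps drs-1, the aspartyl-tRNA synthetase gene on the other strand, which had 38.2 ± 6.70 RPKM in recovery and 29.6 ± 3.04 RPKM in arrest (mean ± SD, n = 4 each) with an input of 20.6 RPKM, and that of nlp-24 overlaps glb-15, a globin gene, so reads there cannot be given to 1 gene. In recovery nlp-33 had 17.3 RPKM with S2, 48.4 and 30.7 with 4H8 and 28.7 with 8WG16, against 27.9 RPKM with S2, 46.1 and 37.1 with 4H8 and 53.97 with 8WG16 in arrest, with an input of 16.2 RPKM. Values of nlp-8 were 11.9 RPKM with S2, 13.9 and 11.7 with 4H8 and 17.1 with 8WG16 in recovery, against 16.2 RPKM with S2, 13.3 and 16.03 with 4H8 and 15.99 with 8WG16 in arrest, with an input of 9.81 RPKM. At nlp-8, which encodes a sleep-promoting peptide of the ALA neuron, the lowest of the 8 values was 11.7 RPKM, and the states overlapped at nlp-33 and nlp-8 too.

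At the low end were flp-26 with a ratio of 0.39, and flp-20, nlp-42 and nlp-22, each with 0.41. At flp-26 the libraries held 7.11 RPKM with S2, 5.73 and 12.2 with 4H8 and 7.50 with 8WG16 in recovery, and 5.11 RPKM with S2, 4.96 and 5.13 with 4H8 and 8.23 with 8WG16 in arrest, with an input of 18.00 RPKM. In recovery flp-20 had 4.69 RPKM with S2, 5.61 and 5.53 with 4H8 and 8.18 with 8WG16, against 4.64 RPKM with S2, 1.29 and 3.10 with 4H8 and 4.27 with 8WG16 in arrest, with an input of 11.5 RPKM. At flp-20, whose peptides come from touch receptor and other neurons, the recovery libraries all lay above the arrest libraries while all 8 stayed under the input. Values of nlp-42 were 1.05 RPKM with S2, 1.17 and 2.89 with 4H8 and 3.96 with 8WG16 in recovery, against 1.23 RPKM with S2, 1.01 and 1.13 with 4H8 and 2.39 with 8WG16 in arrest, with an input of 4.57 RPKM. At nlp-22 the libraries held 2.77 RPKM with S2, 8.51 and 6.53 with 4H8 and 8.58 with 8WG16 in recovery, and 4.65 RPKM with S2, 4.05 and 5.80 with 4H8 and 5.88 with 8WG16 in arrest, with an input of 14.3 RPKM. NLP-22 is a sleep-promoting peptide of the RIA neurons, and its model overlaps T01B6.1. The receptor ligand genes flp-18 and flp-21, whose peptides activate NPR-1, had ratios of 0.54 and 0.41. Ratios of TSS density to input were above 1 in all 8 libraries at 3 members, nlp-3, nlp-12 and nlp-36, and below in all 8 at 16, against 7.55% and 30.6% of all genes.

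In recovery 8 neuropeptide genes had a higher gene density than in 12 hr arrest and 4 a lower one, among 35 that could be tested, and 23 did not pass. A gene entered where its mean over the 8 libraries was at least 10 RPKM, which left out 37 members, so a gene at a low level in 1 state could enter only through the other. The change is the log2 ratio of recovery over 12 hr arrest of RPKM + 5, fitted by limma with a term for antibody. An adjusted p under 0.05 was taken as passed. The change averages the 4 pairs of recovery and arrest libraries, so 4H8, with 2 libraries per state, weighs more than S2 or 8WG16. Of all 7214 genes tested, 22.9% were higher and 15.1% lower, against 22.9% and 11.4% of the members, so the neuropeptide genes as a set stood close to the background. Their median change was 0.18, against 0.08 over all genes. The flp genes had 4 higher and 2 lower of 15 tested, and the nlp genes 4 higher and 2 lower of 20. The p-values measure the spread between these libraries, since nothing says that chromatin for different antibodies came from separate cultures. S2 and 8WG16 had 1 library per state. Leaving out either library of such an antibody removes its whole pair from the change. The losses given below for its recovery and its arrest library are therefore not separate checks.

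The highest mean gene density among the members was counted over the deposited model of nlp-4 (F59C6.6, I:10516063-10517730, minus strand). In recovery nlp-4 had 82.8 RPKM with S2, 211 and 172 with 4H8 and 284 with 8WG16, against 51.5 RPKM with S2, 94.9 and 75.2 with 4H8 and 164 with 8WG16 in arrest. The input was 17.8 RPKM, so every library was above it, and every antibody gave more in recovery, although the 2 states overlap between antibodies. Its change was 0.92 ± 0.16 (adjusted p = 0.00332). At 6 hr of arrest the S2 library had 31.2 RPKM. The start window did not follow. Values at the start of nlp-4 were 4.89 RPKM with S2, 22.2 and 16.2 with 4H8 and 22.7 with 8WG16 in recovery, against 10.5 RPKM with S2, 19.6 and 21.5 with 4H8 and 11.8 with 8WG16 in arrest, all below an input of 34.02 RPKM. Its 5' bias (log2 of TSS density + 5 over gene density + 5) was -3.15 in recovery and -2.20 in arrest, the lowest of all members, against 0.78 in the input. In the 21 gene models of at least 1000 bp tested for 5' bias, nlp-4 was the 1 member that fell (-0.95 ± 0.28 (adjusted p = 0.025)) and 0 were higher. Over all 7561 genes tested for bias, 1.55% were higher and 14.4% lower. The bias call of nlp-4 was lost, to 0 members, on leaving out any of the S2 or 4H8 libraries in turn.

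Gene densities of the 3 neighbours of nlp-4 within 2000 bp were lower than its own. On one side exos-3, an RNA exosome subunit gene 636 bp away, had 12.8 ± 1.50 RPKM in recovery and 13.5 ± 1.78 RPKM in arrest (mean ± SD, n = 4 each), and on the other che-13, an intraflagellar transport gene 568 bp away, had 4.25 ± 0.53 RPKM in recovery and 5.05 ± 1.08 RPKM in arrest (mean ± SD, n = 4 each). Beyond exos-3, F59C6.5 at 1617 bp had 33.2 ± 10.6 RPKM in recovery and 24.8 ± 7.37 RPKM in arrest (mean ± SD, n = 4 each) with an input of 20.9 RPKM, and its change of 0.36 ± 0.14 did not pass (adjusted p = 0.069). In the later RefSeq annotation of assembly WBcel235 the nlp-4 model is 735 bp long, against 1668 bp in the deposited coordinates. That annotation places a snoRNA gene (F59C6.15), a noncoding RNA gene (F59C6.19) and a small coding gene (F59C6.18) between nlp-4 and che-13, and none of the 3 has a row in the deposited tables. Among the 72 members nlp-4 was the only one with a snoRNA gene within 1500 bp there. The share over all genes was not counted. The deposited model was at least 1.5 times the RefSeq model at 3 members, nlp-4 among them. Positions were not converted between the builds, and the part of these genes in the density counted for nlp-4 was not tested.

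A gain of polymerase over both the gene and the start was seen at nlp-12 (M01D7.5, I:1843401-1843835, plus strand), which encodes a cholecystokinin-like peptide of the DVA neuron that adjusts locomotion. At nlp-12 the libraries held 122 RPKM with S2, 62.99 and 65.6 with 4H8 and 38.3 with 8WG16 in recovery, and 40.99 RPKM with S2, 22.2 and 40.7 with 4H8 and 21.8 with 8WG16 in arrest. S2 gave the highest value in each state, and the input was 25.6 RPKM, above 2 of the arrest libraries and below all recovery libraries. Its gene density rose by 1.03 ± 0.19 (adjusted p = 0.00406). In recovery nlp-12 had at the start 254 RPKM with S2, 131 and 124 with 4H8 and 52.9 with 8WG16, against 101 RPKM with S2, 65.3 and 110.0 with 4H8 and 35.02 with 8WG16 in arrest, against an input of 24.8 RPKM. The start window exceeded the input in all 9 ChIP libraries and rose by 0.74 ± 0.25 (adjusted p = 0.020). That window covers part of the short gene model, so the 2 measures share reads and are not separate support. The call at the start of nlp-12 was lost on leaving out the S2 library of recovery (adjusted p = 0.198), the 4H8 replicate 1 library of arrest (adjusted p = 0.101) or the S2 library of arrest (adjusted p = 0.188). The gene of emerin, emr-1, lies 173 bp away on the same strand and had a change of 0.40 ± 0.17 (adjusted p = 0.091).

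The genes flp-11, flp-1 and flp-13 also rose, at lower densities. Values of flp-11 were 36.5 RPKM with S2, 20.5 and 17.3 with 4H8 and 27.3 with 8WG16 in recovery, against 12.8 RPKM with S2, 12.9 and 14.1 with 4H8 and 17.4 with 8WG16 in arrest. FLP-11 is the main sleep-promoting peptide of the RIS neuron, and its values touch, with 17.3 RPKM at the lowest in recovery and 17.4 RPKM at the highest in arrest. Its change was 0.62 ± 0.15 (adjusted p = 0.013). At flp-1 the libraries held 29.6 RPKM with S2, 19.1 and 14.7 with 4H8 and 17.4 with 8WG16 in recovery, and 10.6 RPKM with S2, 11.5 and 9.64 with 4H8 and 13.2 with 8WG16 in arrest. FLP-1 is released by the AVK interneurons and acts on locomotion, and here the recovery libraries all lay above the arrest libraries, with a change of 0.60 ± 0.15 (adjusted p = 0.013). The flp-1 model overlaps that of daf-10, so reads there cannot be given to 1 gene. Over its model daf-10 had 6.555 ± 0.944 RPKM in recovery and 4.56 ± 0.521 RPKM in arrest (mean ± SD, n = 4 each), too low to be tested. At its start daf-10 had 42.3 ± 17.7 and 51.5 ± 12.1 RPKM, and the change did not pass (-0.31 ± 0.27, adjusted p = 0.424). The polymerase subunit gene rpb-12, 352 bp away, also rose, by 0.55 ± 0.13 (adjusted p = 0.010), having entered the test only through recovery. In recovery flp-13 had 16.2 RPKM with S2, 15.6 and 15.5 with 4H8 and 13.1 with 8WG16, against 10.7 RPKM with S2, 14.5 and 10.7 with 4H8 and 8.33 with 8WG16 in arrest. FLP-13 acts in the ALA neuron in sleep that follows cell stress, and its change was 0.34 ± 0.10 (adjusted p = 0.029). The call of flp-13 was lost on leaving out the 4H8 replicate 1 library of recovery (adjusted p = 0.052), the 8WG16 library of recovery (adjusted p = 0.085), the S2 library of recovery (adjusted p = 0.114), the 4H8 replicate 2 library of arrest (adjusted p = 0.080), the 8WG16 library of arrest (adjusted p = 0.087) or the S2 library of arrest (adjusted p = 0.110). The inputs were 14.6 RPKM at flp-11, 10.8 RPKM at flp-1 and 13.3 RPKM at flp-13.

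The 3 remaining genes that rose were flp-14, nlp-1 and nlp-34. Values of flp-14 were 13.8 RPKM with S2, 15.2 and 24.00 with 4H8 and 23.3 with 8WG16 in recovery, against 11.3 RPKM with S2, 12.04 and 14.6 with 4H8 and 13.8 with 8WG16 in arrest, with an input of 17.9 RPKM. Both states overlap and the change was 0.40 ± 0.13 (adjusted p = 0.041). The call of flp-14 was lost on leaving out the 4H8 replicate 2 library of recovery (adjusted p = 0.085), the 8WG16 library of recovery (adjusted p = 0.129), the S2 library of recovery (adjusted p = 0.064), the 4H8 replicate 1 library of arrest (adjusted p = 0.106), the 4H8 replicate 2 library of arrest (adjusted p = 0.057), the 8WG16 library of arrest (adjusted p = 0.136) or the S2 library of arrest (adjusted p = 0.065). At nlp-1 the libraries held 14.4 RPKM with S2, 20.6 and 22.4 with 4H8 and 17.6 with 8WG16 in recovery, and 13.6 RPKM with S2, 12.4 and 13.7 with 4H8 and 11.7 with 8WG16 in arrest, with an input of 26.5 RPKM above all 8. NLP-1 is a peptide of the AWC olfactory neurons, and its recovery libraries all lay above its arrest libraries, with a change of 0.40 ± 0.10 (adjusted p = 0.018). The call of nlp-1 was lost on leaving out the 8WG16 library of recovery (adjusted p = 0.052), the 4H8 replicate 1 library of arrest (adjusted p = 0.059) or the 8WG16 library of arrest (adjusted p = 0.057). In recovery nlp-34 had 11.6 RPKM with S2, 20.2 and 26.03 with 4H8 and 17.2 with 8WG16, against 12.9 RPKM with S2, 8.12 and 6.29 with 4H8 and 11.5 with 8WG16 in arrest, with an input of 18.3 RPKM. The S2 pair of nlp-34 went the other way from the other pairs, and the change was 0.68 ± 0.22 (adjusted p = 0.038). It entered the test only through recovery, since its arrest mean was 9.72 RPKM. The call of nlp-34 was lost on leaving out the 4H8 replicate 1 library of recovery (adjusted p = 0.085), the 4H8 replicate 2 library of recovery (adjusted p = 0.097), the 8WG16 library of recovery (adjusted p = 0.066), the 4H8 replicate 1 library of arrest (adjusted p = 0.089), the 4H8 replicate 2 library of arrest (adjusted p = 0.091) or the 8WG16 library of arrest (adjusted p = 0.070). The mean over both states was below the input at 4 of the 8 genes that rose (flp-13, flp-14, nlp-1 and nlp-34) and at 2 of the 4 that fell (flp-3 and flp-28), against 39.6% and 10.3% of all genes called in these directions.

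**Figure D2:**
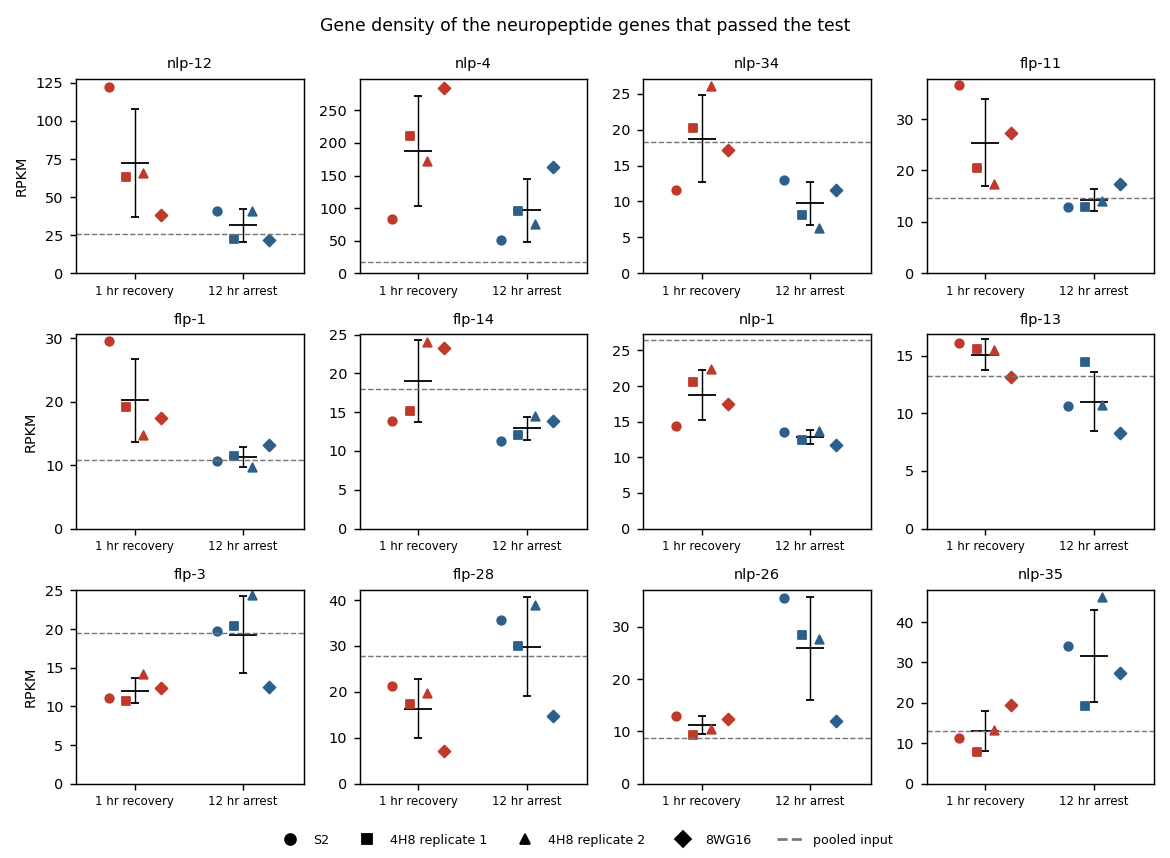
Gene density in RPKM (vertical axes, each from 0) of the 12 neuropeptide genes that passed the test, with 1 hr recovery in red on the left and 12 hr arrest in blue on the right. Symbols mark the antibody and replicate, the black bar and whiskers give mean ± SD of the 4 libraries, and the dashed line is the pooled input; nlp-4 is far above its input while nlp-1 lies below it in all 8 libraries.

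Of the 4 genes that fell, nlp-35 fell furthest (C33A12.2, IV:9518362-9518904, minus strand). Values of nlp-35 were 11.4 RPKM with S2, 7.79 and 13.2 with 4H8 and 19.5 with 8WG16 in recovery, against 34.1 RPKM with S2, 19.1 and 46.1 with 4H8 and 27.3 with 8WG16 in arrest, with an input of 13.02 RPKM. Within each of the 4 pairs of recovery and arrest libraries it was lower in recovery, and the change was -1.01 ± 0.25 (adjusted p = 0.015). The call of nlp-35 was lost on leaving out the S2 library of recovery (adjusted p = 0.059) or the S2 library of arrest (adjusted p = 0.058). Its model overlaps that of C33A12.19 on the other strand only at their ends, at IV:9518362-9518387. C33A12.19 had 5.01 ± 0.66 RPKM in recovery and 10.9 ± 2.65 RPKM in arrest (mean ± SD, n = 4 each) and was too low to be tested. At nlp-26 the libraries held 12.95 RPKM with S2, 9.29 and 10.4 with 4H8 and 12.3 with 8WG16 in recovery, and 35.55 RPKM with S2, 28.4 and 27.7 with 4H8 and 12.1 with 8WG16 in arrest, with an input of 8.82 RPKM. The antimicrobial-type gene nlp-26 was lower in recovery with S2 and 4H8 but not with 8WG16, whose values were 12.3 RPKM in recovery and 12.1 RPKM in arrest, and its change was -0.87 ± 0.19 (adjusted p = 0.00952). Its convergent neighbour Y43F8C.3, whose model ends 49 bp away, fell by a like amount (-0.88 ± 0.11, adjusted p = 0.000515) and at its start by -1.57 ± 0.25 (adjusted p = 2.73e-06). Its part in the value of nlp-26 was not tested.

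The other genes that fell, flp-28 and flp-3, lie with flp-2 inside 1 gene, W07E11.1, on the opposite strand of the X chromosome. In recovery flp-28 had 21.3 RPKM with S2, 17.3 and 19.7 with 4H8 and 7.07 with 8WG16, against 35.7 RPKM with S2, 30.04 and 38.9 with 4H8 and 14.8 with 8WG16 in arrest, with an input of 27.7 RPKM. All 4 pairs were lower in recovery, with changes of -0.63 to -0.83, and the change over all was -0.71 ± 0.10 (adjusted p = 0.00119). Values of flp-3 were 11.03 RPKM with S2, 10.6 and 14.2 with 4H8 and 12.4 with 8WG16 in recovery, against 19.7 RPKM with S2, 20.4 and 24.4 with 4H8 and 12.4 with 8WG16 in arrest, with an input of 19.4 RPKM. The 8WG16 values of flp-3 were 12.37 RPKM in recovery and 12.45 RPKM in arrest, and the change was -0.49 ± 0.14 (adjusted p = 0.024). The call of flp-3 was lost on leaving out the 4H8 replicate 1 library of recovery (adjusted p = 0.058), the S2 library of recovery (adjusted p = 0.088), the 4H8 replicate 1 library of arrest (adjusted p = 0.051), the 4H8 replicate 2 library of arrest (adjusted p = 0.065) or the S2 library of arrest (adjusted p = 0.088). The third gene, flp-2, an arousal peptide gene, had a change of -0.35 ± 0.17 (adjusted p = 0.131) and did not pass. The host W07E11.1 fell too, with 12.5 ± 2.05 RPKM in recovery and 19.01 ± 3.07 RPKM in arrest (mean ± SD, n = 4 each) and a change of -0.46 ± 0.12 (adjusted p = 0.020), and the counting is not stated to use strand, so the host and the flp genes cannot be told apart. Leaving out the 10 members that overlap another model, 7 of the 8 rising genes remained and 1 of the 4 falling genes, nlp-26. The overlap that left out nlp-35 covers only an end of its model, while flp-28 and flp-3 lie wholly inside W07E11.1.

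The 8 higher calls were lost under another scaling of the libraries. Chemoreceptor genes, used here as genes with little polymerase in any library, had median densities of 2.87 to 6.25 RPKM in recovery and 2.32 to 4.40 RPKM in arrest. Scaling each library on that median moved the median change over all 7214 genes to -0.25. With it 0 of the 35 members passed as higher and 8 as lower, with 5.48% and 22.3% of all genes, and 9 members had an unadjusted p under 0.05. All 8 genes that had risen kept a positive sign and none passed, from nlp-12 (0.64 ± 0.34, adjusted p = 0.150) and nlp-4 (0.49 ± 0.40, adjusted p = 0.371) to flp-13 (0.02 ± 0.19, adjusted p = 0.960). The 4 genes that had fallen passed again, and flp-2, nlp-27, nlp-29 and nlp-33 joined them. The members' median of -0.13 stayed above that of all genes under this scaling.

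**Figure D3:**
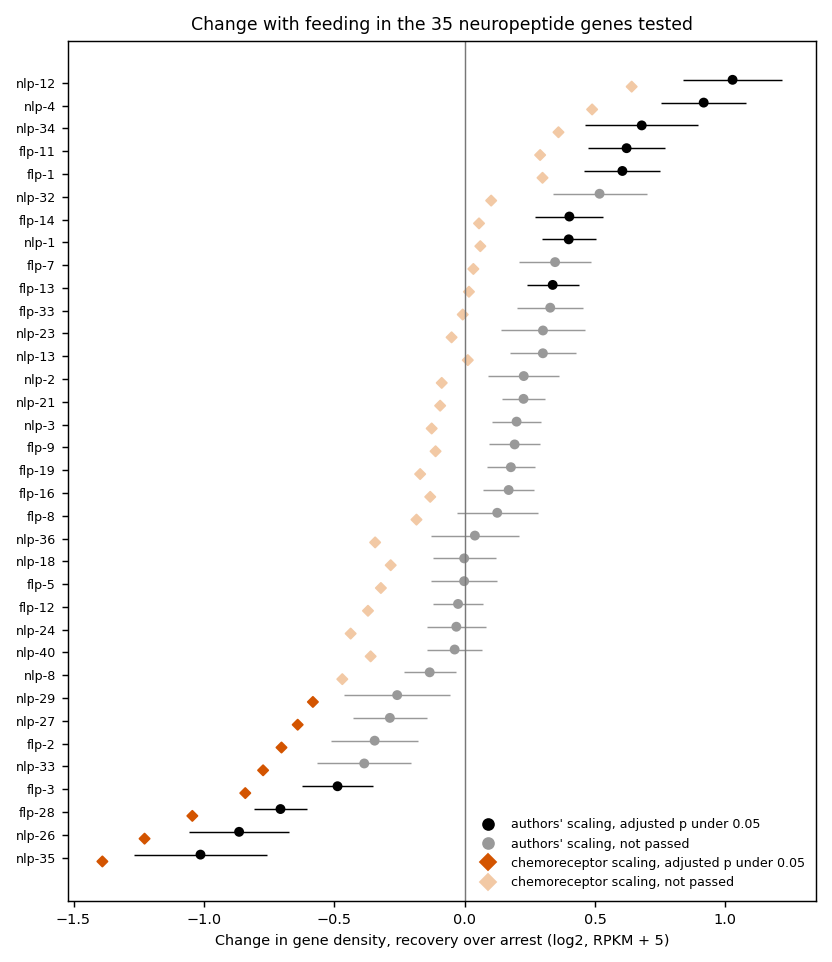
Change in gene density (horizontal axis, log2 of RPKM + 5, recovery over arrest) of the 35 neuropeptide genes tested, as circles ± SE with the authors' scaling and as diamonds after scaling on chemoreceptor genes. Black and dark orange mark an adjusted p under 0.05; under the second scaling every diamond sits to the left of its circle, 0 genes pass as higher and 8 pass as lower.

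Of 37 members tested for TSS density, 4 were higher and 3 lower, where 6.99% of all 6808 genes tested were higher and 21.7% lower. The members' median change was 0.22, against -0.15 for all genes. Of 45 members tested for either measure, 18 passed for at least 1 (40.0%, against 41.0% of all genes tested for either). Of the 27 tested for both, nlp-12 was the only one that passed for both (3.7%, against 18.1% of all genes tested for both), and that difference was not tested. At nlp-25 the libraries held at the start 17.9 RPKM with S2, 10.00 and 23.9 with 4H8 and 26.5 with 8WG16 in recovery, and 2.34 RPKM with S2, 5.36 and 7.54 with 4H8 and 0.00 with 8WG16 in arrest, with an input of 11.8 RPKM. The recovery libraries of nlp-25 (Y43F8C.1, V:19607474-19608309), an antimicrobial-type gene, all lay above its arrest libraries, and it rose by 1.51 ± 0.36 (adjusted p = 0.000843), or by 1.35 ± 0.35 (adjusted p = 0.00179) after scaling on chemoreceptor genes. It entered the test only through recovery, with means of 19.6 RPKM in recovery and 3.81 RPKM in arrest and 0 reads in the 8WG16 library of arrest, and with no filter it did not pass (adjusted p = 0.117). Its gene density showed the same order at a level too low to be tested, with 10.4 ± 3.52 RPKM in recovery and 3.03 ± 1.47 RPKM in arrest (mean ± SD, n = 4 each). The gene grsp-1, within 2000 bp of both nlp-25 and nlp-26, rose at its start, which entered the test only through recovery, by 1.06 ± 0.31 (adjusted p = 0.007) and over its model by 0.40 ± 0.12 (adjusted p = 0.031).

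The other starts that rose were those of flp-19 and nlp-36. In recovery flp-19 had at the start 22.8 RPKM with S2, 33.3 and 32.4 with 4H8 and 22.7 with 8WG16, against 5.85 RPKM with S2, 16.1 and 21.5 with 4H8 and 8.88 with 8WG16 in arrest, with an input of 29.4 RPKM. Recovery lay above arrest in every library, the mean of both states stayed under the input, and the change was 0.93 ± 0.28 (adjusted p = 0.00806). The call of flp-19 was lost on leaving out the S2 library of recovery (adjusted p = 0.082) or the S2 library of arrest (adjusted p = 0.075). The model of abl-1, the Abl tyrosine kinase gene, ends 4 bp away. Values at the start of nlp-36 were 47.2 RPKM with S2, 56.7 and 23.03 with 4H8 and 22.7 with 8WG16 in recovery, against 16.4 RPKM with S2, 21.4 and 21.5 with 4H8 and 17.8 with 8WG16 in arrest, with an input of 15.5 RPKM. These were above the input in all libraries and higher in recovery without overlap, and the change was 0.72 ± 0.28 (adjusted p = 0.048). The call of nlp-36 was lost on leaving out the 4H8 replicate 1 library of recovery (adjusted p = 0.251), the S2 library of recovery (adjusted p = 0.282), the 4H8 replicate 1 library of arrest (adjusted p = 0.071), the 4H8 replicate 2 library of arrest (adjusted p = 0.072) or the S2 library of arrest (adjusted p = 0.273). The start of the overlapping drs-1 moved the other way, with a change of -1.26 ± 0.29 (adjusted p = 0.000563). After scaling on chemoreceptor genes nlp-25 alone of the 4 still passed, the 3 that fell all passed, and nlp-24 passed as lower, where 2.95% of all genes were higher and 19.1% lower.

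**Figure D4:**
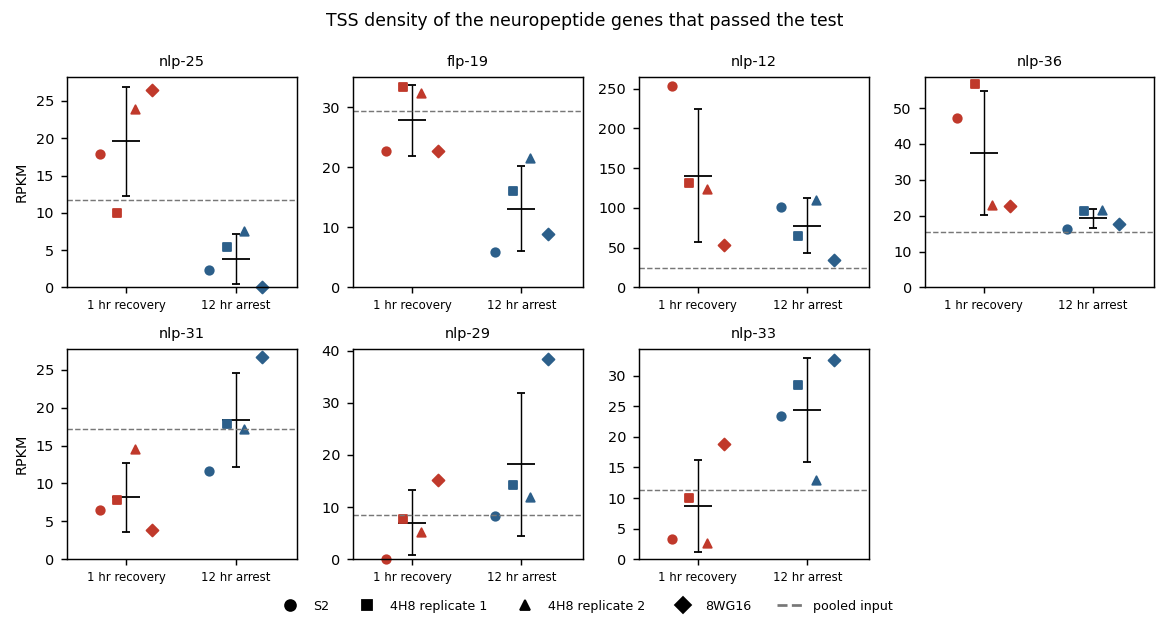
TSS density in RPKM (vertical axes, each from 0) of the 7 neuropeptide genes that passed the test at the start window, with 1 hr recovery in red on the left and 12 hr arrest in blue on the right. Symbols mark the antibody and replicate, the bar and whiskers mean ± SD of the 4 libraries and the dashed line the pooled input; nlp-25, flp-19 and nlp-36 show no overlap between the states.

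The 3 starts that fell were those of nlp-33, nlp-29 and nlp-31, which encode antimicrobial-type peptides of the epidermis, as does nlp-25, whose start rose. Their means at the start were 8.68, 7.01 and 8.14 RPKM in recovery, against 24.4, 18.2 and 18.4 RPKM in arrest, so all 3 entered the test only through arrest and their count supports nothing. With no filter none of the 3 passed (adjusted p = 0.139 at nlp-33, 0.080 at nlp-29 and 0.216 at nlp-31). At nlp-33 the libraries held at the start 3.26 RPKM with S2, 10.00 and 2.56 with 4H8 and 18.9 with 8WG16 in recovery, and 23.4 RPKM with S2, 28.6 and 12.9 with 4H8 and 32.6 with 8WG16 in arrest, with an input of 11.3 RPKM. Every pair of nlp-33 (T19C4.7, V:11147320-11147715) was lower in recovery, and it fell by 1.21 ± 0.31 (adjusted p = 0.00206). In recovery nlp-29 had at the start 0.00 RPKM with S2, 7.78 and 5.12 with 4H8 and 15.1 with 8WG16, against 8.19 RPKM with S2, 14.3 and 11.8 with 4H8 and 38.5 with 8WG16 in arrest, with an input of 8.40 RPKM. Here too each pair was lower in recovery, with a change of -0.96 ± 0.32 (adjusted p = 0.021). The call of nlp-29 was lost on leaving out the 8WG16 library of recovery (adjusted p = 0.052), the S2 library of recovery (adjusted p = 0.099), the 8WG16 library of arrest (adjusted p = 0.066) or the S2 library of arrest (adjusted p = 0.128). Values at the start of nlp-31 were 6.51 RPKM with S2, 7.78 and 14.5 with 4H8 and 3.78 with 8WG16 in recovery, against 11.7 RPKM with S2, 17.9 and 17.2 with 4H8 and 26.6 with 8WG16 in arrest, with an input of 17.2 RPKM. The change of nlp-31 was -0.85 ± 0.31 (adjusted p = 0.035), and -0.52 without either 8WG16 library. The call of nlp-31 was lost on leaving out the 4H8 replicate 1 library of recovery (adjusted p = 0.088), the 8WG16 library of recovery (adjusted p = 0.238), the S2 library of recovery (adjusted p = 0.052), the 4H8 replicate 2 library of arrest (adjusted p = 0.052), the 8WG16 library of arrest (adjusted p = 0.277) or the S2 library of arrest (adjusted p = 0.057).

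The genes nlp-27 to nlp-31 and nlp-34 lie together on chromosome V (3978811-3989755) as the nlp-29 cluster. All 6 had gene densities on both sides of the input. At nlp-29 the libraries held 8.22 RPKM with S2, 10.7 and 18.4 with 4H8 and 15.6 with 8WG16 in recovery, and 6.44 RPKM with S2, 14.7 and 16.8 with 4H8 and 36.7 with 8WG16 in arrest. At nlp-29 the 8WG16 value in arrest was 36.7 RPKM, and the change was -0.26 ± 0.20 (adjusted p = 0.335). In recovery nlp-27 had 16.6 RPKM with S2, 22.1 and 18.3 with 4H8 and 21.2 with 8WG16, against 20.9 RPKM with S2, 18.2 and 26.9 with 4H8 and 36.3 with 8WG16 in arrest, with a change of -0.29 ± 0.14 (adjusted p = 0.140). The gene nlp-34, described above, was the only member of the cluster that passed for gene density, in the opposite direction to the starts of nlp-29 and nlp-31. Values of nlp-28 were 7.90 RPKM with S2, 5.39 and 7.45 with 4H8 and 14.7 with 8WG16 in recovery, against 6.82 RPKM with S2, 5.20 and 10.98 with 4H8 and 12.9 with 8WG16 in arrest. At nlp-30 the libraries held 2.13 RPKM with S2, 2.90 and 6.68 with 4H8 and 13.8 with 8WG16 in recovery, and 2.44 RPKM with S2, 4.20 and 3.94 with 4H8 and 9.28 with 8WG16 in arrest. In recovery nlp-31 had 2.30 RPKM with S2, 7.45 and 15.04 with 4H8 and 14.7 with 8WG16, against 7.84 RPKM with S2, 6.30 and 12.9 with 4H8 and 11.5 with 8WG16 in arrest. These 3 genes had means under 10 RPKM and were not tested for gene density. Of the caenacins, another antimicrobial family of the epidermis, 5 of 11 were tested and 2 rose, where 22.9% of all genes did, cnc-8 by 0.89 ± 0.10 (adjusted p = 0.000402) and cnc-4 by 0.75 ± 0.22 (adjusted p = 0.027), and at the start cnc-8 also rose, by 0.80 ± 0.31 (adjusted p = 0.045). Of 10 epidermis markers, 8 were tested, where 22.9% of all genes rose and 15.1% fell. Of those 8, 0 fell, and bli-1 and sqt-3, both collagen genes, rose by 0.48 ± 0.09 and 0.52 ± 0.16 (adjusted p = 0.00517 and 0.030). Of these, cnc-4 and sqt-3 entered the test only through recovery, with arrest means of 6.73 and 9.57 RPKM. After scaling on chemoreceptor genes cnc-4 passed among these 4 gene density values (adjusted p = 0.030), and cnc-8 (adjusted p = 0.234), bli-1 (adjusted p = 0.657), sqt-3 (adjusted p = 0.390) and the start of cnc-8 (adjusted p = 0.146) did not. In the other tissue lists, 3 of 5 intestine, 0 of 9 body muscle and 1 of 6 neuron markers tested rose. Those that fell numbered 0, 3 and 1. The intestine gene opt-2 entered the test only through recovery, with an arrest mean of 6.77 RPKM.

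Within the members the 5' bias of the ChIP libraries ranged widely, and so did that of the input. After nlp-4, the mean 5' bias was lowest at nlp-32 (-1.94) and nlp-24 (-1.29), and it was highest at nlp-15 (1.71), flp-27 (1.35) and flp-5 (1.33). The bias of the input column was 1.20 at nlp-15, 0.79 at flp-27 and 1.41 at flp-5, against -0.87 at nlp-32 and -0.67 at nlp-24. It had the same sign as the ChIP bias at these genes, and at flp-5 it was the higher of the 2. Values at the start of nlp-15 were 21.2 RPKM with S2, 33.3 and 50.3 with 4H8 and 49.2 with 8WG16 in recovery, against 11.7 RPKM with S2, 33.9 and 37.7 with 4H8 and 44.4 with 8WG16 in arrest, with an input of 28.98 RPKM. At flp-27 the libraries held at the start 39.1 RPKM with S2, 20.00 and 36.7 with 4H8 and 34.03 with 8WG16 in recovery, and 39.8 RPKM with S2, 28.6 and 31.2 with 4H8 and 26.6 with 8WG16 in arrest, with an input of 22.3 RPKM. In recovery flp-5 had at the start 24.4 RPKM with S2, 34.5 and 51.2 with 4H8 and 45.4 with 8WG16, against 11.7 RPKM with S2, 30.4 and 39.8 with 4H8 and 47.4 with 8WG16 in arrest, with an input of 40.3 RPKM. The states overlap at all 3. Over the gene models the means were lower, with 6.80 ± 1.09 RPKM in recovery and 6.27 ± 0.64 RPKM in arrest (mean ± SD, n = 4 each) at nlp-15, 7.84 ± 1.36 RPKM in recovery and 11.3 ± 3.05 RPKM in arrest (mean ± SD, n = 4 each) at flp-27 and 10.6 ± 3.83 RPKM in recovery and 10.5 ± 2.82 RPKM in arrest (mean ± SD, n = 4 each) at flp-5.

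With 4H8 alone, the antibody with 2 libraries per state, 3 members were higher (nlp-4, nlp-1 and nlp-34) and 3 lower (flp-3, flp-28 and nlp-26) of 35 tested, where 7.85% and 6.13% of all genes were. The 4H8 libraries of recovery and arrest with the same replicate number shared a sequencing run. In a separate fit of the 4H8 libraries alone, with that pairing, 11 members were higher and 4 lower, where 21.0% and 13.1% of all genes were. Both the libraries and the pairing differ between these fits, so the added calls cannot be put down to the pairing. Tests of whether the response differed between antibodies called 0 of 35 members, for 4H8 against S2 as for 4H8 against 8WG16. At an unadjusted p under 0.05 there were 4 members in each of these tests. In the first, 0.0138% of all genes were called in each direction, and in the second 0.0%.

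Time in arrest was compared with S2, 1 library at 12 hr and 1 at 6 hr, which are taken to vary like the other groups. For gene density 0 members and 0.0% of all 7240 genes passed in either direction, and 1 member, nlp-29, had an unadjusted p under 0.05 (6.44 RPKM at 12 hr, against 22.1 RPKM at 6 hr). For TSS density 0 of 38 members were higher and 1 was lower, where 3.49% and 0.118% of all genes were. That gene was nlp-35, with 18.7 RPKM at 12 hr and 82.9 RPKM at 6 hr (change -1.89 ± 0.56, adjusted p = 0.044). With 1 library at each time this call rests on the spread between the 4H8 replicates, on 2 residual degrees of freedom beside limma's shared estimate, so it has no replicate check of its own. Over its gene model nlp-35 had 72.6 RPKM at 6 hr, 34.1 RPKM at 12 hr and 11.4 RPKM in recovery. The S2 values of nlp-12 ran the other way, with 26.7, 40.99 and 122 RPKM at the same 3 points, and those of nlp-4 with 31.2, 51.5 and 82.8 RPKM. At nlp-26 they were 33.8, 35.55 and 12.95 RPKM.

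**Figure D5:**
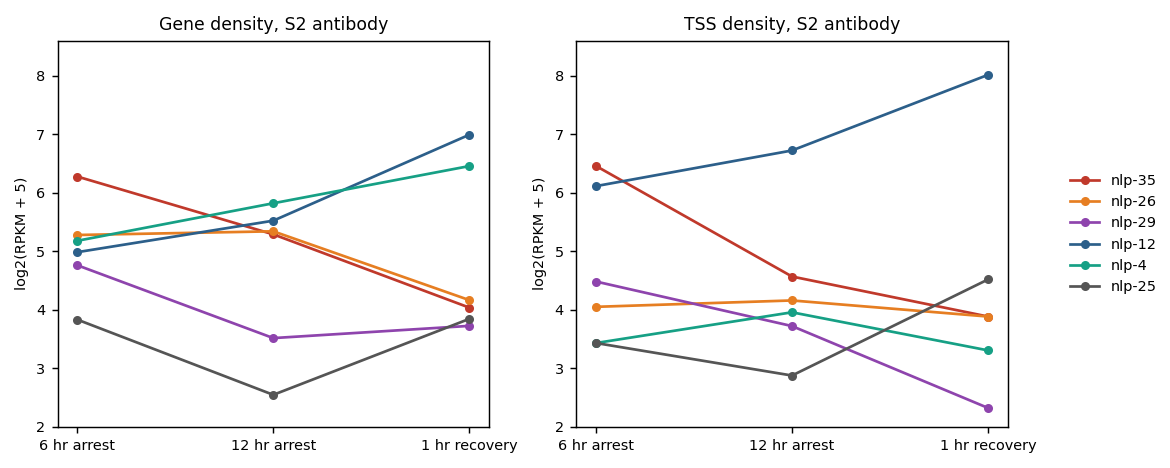
S2 values of 6 neuropeptide genes (vertical axis, log2 of RPKM + 5) at 6 hr arrest, 12 hr arrest and 1 hr recovery, over the gene model on the left and over the TSS window on the right, with 1 library at each point. The red line of nlp-35 descends at each step in both panels, and the blue line of nlp-12 ascends.

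The order of the libraries was also read for all members, tested or not. For gene density, all 4 recovery libraries lay above all 4 arrest libraries at 7 members, where 9.66% of all genes did, and below them at 1, where 4.97% did. The 7 were flp-1, flp-4, flp-20, flp-24, nlp-1, nlp-13 and nlp-25, and the 1 was flp-27. Values of flp-4 were 10.2 RPKM with S2, 7.88 and 13.03 with 4H8 and 15.5 with 8WG16 in recovery, against 5.75 RPKM with S2, 7.79 and 5.88 with 4H8 and 4.85 with 8WG16 in arrest, with an input of 10.4 RPKM. At flp-24 the libraries held 7.74 RPKM with S2, 8.22 and 8.56 with 4H8 and 8.65 with 8WG16 in recovery, and 5.15 RPKM with S2, 5.97 and 5.31 with 4H8 and 4.17 with 8WG16 in arrest, with an input of 10.7 RPKM. All of the flp-24 values were under the input. In recovery flp-27 had 5.82 RPKM with S2, 8.74 and 8.23 with 4H8 and 8.56 with 8WG16, against 15.8 RPKM with S2, 9.36 and 9.37 with 4H8 and 10.6 with 8WG16 in arrest, with an input of 10.8 RPKM. For TSS density 5 members lay above and 0 below, where 3.2% and 6.42% of all genes did. In all, 27 members were tested for both measures and 27 for neither.

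Genes that make, release, receive and break down neuropeptides were taken from lists chosen with results of these data known. Their counts stand beside 22.9% higher and 15.1% lower of all genes for gene density, and 6.99% and 21.7% at the start. Of 11 listed processing enzymes 6 were in the tables and tested, their median ratio to input was 1.54, and 3 (egl-3, aex-5 and egl-21) exceeded the input in all 8 libraries, where 9.93% of all genes did. None passed for gene density, while at the start egl-21, the carboxypeptidase E gene, fell by 1.05 ± 0.27 (adjusted p = 0.00191) and sbt-1, the gene of the convertase chaperone 7B2, fell by 1.02 ± 0.25 (adjusted p = 0.00155). Of 18 dense core vesicle and release genes, with a median ratio to input of 1.21, 13 were tested, 0 rose and 3 fell, namely unc-108 (RAB2, -0.41 ± 0.11 (adjusted p = 0.023)), cab-1 (-0.35 ± 0.09 (adjusted p = 0.017)) and tom-1 (tomosyn, -0.29 ± 0.08 (adjusted p = 0.024)). At the start, unc-18, ric-19 and ida-1 fell, by 1.02, 0.99 and 0.68 on the log2 scale, and after scaling on chemoreceptor genes ida-1 did not pass (adjusted p = 0.144). Of 6 peptide-degrading enzymes 3 were tested and 2 rose, the dipeptidyl peptidase gene dpf-3 (0.46 ± 0.11 (adjusted p = 0.014)) and the neprilysin gene nep-2 (0.27 ± 0.09 (adjusted p = 0.044)), of which dpf-3 also rose at its start, by 1.69 ± 0.26 (adjusted p = 2.23e-06). Over the gene model dpf-3 entered the test only through recovery, with an arrest mean of 8.90 RPKM. Of 15 peptide receptor genes 5 were tested, 0 passed and 7 (46.7%) were below the input in all 8 libraries, near the 50.5% of all genes. All 4 receptors named npr were below it too, and none of them reached the test. The rises of dpf-3 and nep-2 over the gene model did not pass with the chemoreceptor scaling (adjusted p of 0.543 at dpf-3 and 0.897 at nep-2).

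Later annotation widens the family. In RefSeq's WBcel235 annotation all 72 members were matched by their sequence names, 69 under the same symbol and 3 under another, among them nlp-37 as pdf-2, a pigment dispersing factor peptide gene. That annotation names 40 further flp or nlp genes, of which 38 were in the deposited tables. For gene density their median ratio to input was 0.59 and none exceeded the input in all 8 libraries. For TSS density 2 did (5.26%), where 7.55% of all genes did. Of 15 tested for gene density 6 rose and 1 fell, where 22.9% and 15.1% of all genes did, led by nlp-82 (0.77 ± 0.15 (adjusted p = 0.00494)), nlp-59 (0.70 ± 0.21 (adjusted p = 0.032)) and nlp-68 (0.64 ± 0.08 (adjusted p = 0.000534)) among those that rose, and by nlp-53 (-0.36 ± 0.12 (adjusted p = 0.046)) below. Of these named genes nlp-82 and nlp-59 entered the test only through recovery, with arrest means of 9.69 and 6.42 RPKM, as did nlp-45, another of the 6 that rose, and nlp-53 only through arrest, with a recovery mean of 9.80 RPKM. After scaling on chemoreceptor genes 0 of the 15 passed as higher, with an adjusted p of 0.087 at nlp-82, and 1 as lower. This wider list was chosen after the values were seen.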

How the data were processed

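The authors deposited read densities in RPKM for 20314 WS190 gene models and their 200 bp start windows, and fold enrichment, a ratio of these over the input, per the file headers. The aligner is not given in the sources used here. Depth was recovered from the step that 1 read makes in TSS density. No other score of the authors was used, and base positions are the authors' deposited WS190 values.

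From these, log2(RPKM + 5) was tested with limma 3.58.1 in R 4.3.3 (lmFit, eBayes with trend, two-sided), with a term for antibody in the 8 libraries of recovery and 12 hr arrest. Genes with a mean of at least 10 RPKM entered, and p-values were adjusted over all of them (Benjamini-Hochberg, threshold 0.05). The 4H8 contrast, the S2 contrast and the contrasts between antibodies came from 1 fit of 9 libraries with a mean per group. The 6 hr arrest column carries the title of the first S2 sample, and whether it also holds reads of the second is not stated. The gene density test was run on simulated data with 1 spread for all 7214 genes. There, 100 of 100 genes changed by 1 and 100 of 100 changed by 2 on the log2 scale were called, with 10 unchanged genes called. No change smaller than 1 was simulated, and the spread of the real libraries differs between genes. The simulation therefore says nothing about the smaller changes called here. The label descriptions give each recovery library and its arrest partner of the same antibody and replicate number 1 shared sequencing run, so the numbers pair the libraries by run. Deviations of the 4H8 partners correlated across genes (r = 0.3339, 7240 genes). Replicate 2 was the deeper 4H8 library in arrest (4642000 against 2800000 reads) and in recovery (5861000 against 4498000). With 2 libraries per state, the correlation therefore cannot show that samples were paired.

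Members and lists were chosen with earlier results of these data known. Named with values were members that passed, the 8 highest and 4 lowest ratios to input, the 3 highest and 3 lowest 5' biases and the nlp-29 cluster, and further members whose states did not overlap were chosen after their values were seen. Alternatives were the pseudocount, the filter, quantile and chemoreceptor scaling, fold enrichment, a replicate block, leaving out libraries or overlapping genes, and the input definition. Plots used matplotlib 3.10.9, and tables pandas 2.3.3 and numpy 2.4.6 under Python 3.11.15.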

Additional observations from a re-analysis of the deposited data

How the results depend on the processing

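No direction reversed among the 19 gene and TSS changes that passed, under any alternative run, although calls were often lost. The balance of higher and lower counts did turn after chemoreceptor scaling for gene density, where the members' median change was -0.13 against 0.18, and for TSS density, for TSS density also without the 4H8 replicate 1 library of arrest (2 higher and 3 lower), and for 5' bias after quantile normalization. For gene density, where 8 members were higher and 4 lower, 3 were higher and 2 lower with a filter of 20 RPKM, 5 and 1 with no filter, 5 higher after quantile normalization, 0 and 8 after chemoreceptor scaling, and 1 was lower without overlapping members. Without both 8WG16 libraries, an alternative chosen after seeing the data, 4 were higher. Leaving out each library in turn gave 4 to 8 higher and 2 to 4 lower. For TSS density, 4 higher and 3 lower became 0 and 0 with no filter, 1 higher after chemoreceptor scaling and 0 lower with the filter of 20 RPKM, and leaving out each library gave 1 to 4 higher and 1 to 3 lower. For 5' bias, 1 member was higher with the filter of 20 RPKM and 1 after quantile normalization, and 0 were lower with no filter, a pseudocount of 1 RPKM or quantile normalization, with 0 to 1 lower on leaving out a library. The 4H8 test gave 1 to 3 higher and 1 to 4 lower without 1 library. A separate fit of the 4H8 libraries alone with the replicate block gave 11 higher and 4 lower. In the averaged tests none of the 19 calls was lost under the block, which gave 10 higher for gene density. By TSS density 3 members were above and 16 below the input in all libraries, and for gene density leaving out 1 library gave 7 to 8 above and 27 to 34 below. The causes were not tested. The call of flp-28 held under all 16 alternatives that kept it. Leaving out members that overlap another model, which removes flp-28, is not among the 16, and flp-28 cannot be told apart from its host W07E11.1. Calls of nlp-4 and nlp-12 over the gene model held under 15 of 16. The largest losses were at flp-14 (11 of 15 lost) and at flp-13, nlp-31 at its start and nlp-34 (10 of 15 lost each). These totals count leaving out the recovery library and the arrest library of S2 separately, although either removes the same pair. The same holds for 8WG16, where leaving out both libraries is counted as well.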
